A study of Mus musculus with 2 samples.

Results

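Guides that carry a run of G bases were examined in a CRISPR screen of pyroptosis in a pool of mouse macrophages. The members were the guides with 4 or more G in a row anywhere in their 20 bases, found by sequence alone, with no measured value used. They numbered 1961 of 79633 guides, or 2.46% of the library. In the input library they held 2099176 of 86266754 reads, which is 2.43%, and in the survivor library 404880 of 16269091 reads, which is 2.49%. The cells were bone marrow derived macrophages from R26-Cas9 knock-in animals, immortalized with J2 retrovirus, that also carried the Tet3G transactivator and a caspase-cleavage fragment of gasdermin D (GSDMD) joined to tagBFP and switched on by doxycycline. All cells of both groups carried these elements and the Brie genome-wide guide library. The input group was left without doxycycline. The survivor group received 0.5 μg/ml doxycycline for 16 h and was sorted as BFP positive and negative for propidium iodide, a dye that enters cells with broken membranes. Each group was 1 library, so differences between them stand without replicates and without p-values. The screen asked, according to the series title, how GSDMD pore formation and pyroptosis are controlled. Only guide barcodes were counted, so macrophage markers were not checked.

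A guide directs Cas9 to a matching stretch of DNA that is followed on its 3′ side by the short motif NGG, the PAM. The guide is usually transcribed from a U6 promoter, which favours a G at the start of the transcript, and a run of T ends that transcription. Runs of G are known to stack into four-stranded structures in DNA and RNA, can be hard to synthesize and amplify, and are commonly avoided in guide design. A guide that targets the other strand of the same site carries the run as C. Guides with a run of 4 or more C and no such run of G had the same median GC content as the members, 60%. Their median number of G was 4, against 7 in the members.

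The members had runs of 4, 5 or 6 G. The 3 guides with a run of 6 and the most input reads, and the guide of median input reads in each length class, show the range of run length and position. Capitals mark the run.
K, run of 6: cataGGGGGGctgtatagcg
L, run of 6: tGGGGGGtagaccattgcca
M, run of 6: gcGGGGGGctagccaccgtg
V, run of 6, median input: GGGGGGtgtaatctgccgat
U, run of 5, median input: acatGGGGGtgtgtagtcga
S, run of 4, median input: agcaccttgtaGGGGcacca
X, run at the PAM side, median input: gccgatacagatggctGGGG
W, run at the 5′ end, median input: GGGGacccttaacagcccaa
Y, just outside the rule, longest run of 3: atacGGGtaacaggcccagg

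Most members had the shortest run. A longest run of 4 was found in 1702 guides, 5 in 232 and 6 in 27, and none was longer. Runs of C of 4 or more were more numerous and longer, in 3397 guides and up to 8 bases. Runs of A reached 12 bases and were found in 5104 guides, and runs of T in 24. The number of G in a member ran from 4 to 12, with a median of 7, and its GC content from 30% to 85%, with a median of 60%. A G stood at position 1, the 5′ end, in 753 members, which is 38.4%, against 27.0% of guides with no G run above 2. In 332 of the 753 it belonged to the run itself. Of the 1629 members with the run from position 2 or later, 421 began with G. The members ended in GG, next to the PAM, in 383 cases, or 19.5%, against 10.2%. In 195 of the 383 the run itself ended there. Both excesses thus follow in part from the rule that chose the members. A C run of 4 or more was also present in 69 members, and 7 held 2 separate G runs.

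The runs were unevenly placed. They started at position 1 in 332 members, at positions 2 to 4 in 574, at positions 5 to 8 in 518 and at position 9 or later in 537. Of the last group 195 ended at position 20, directly beside the PAM. Position 14 was the least used start, with 9 members. The C runs had another layout: of the 3328 guides with a C run of 4 or more and no such G run, 2002, or 60.2%, started it at position 9 or later, against 27.4% of the G runs.

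Before induction the members were about as abundant as the rest of the library. Their input reads had a median of 935 (95% order-statistic interval 900 to 971), quartiles of 511 and 1475 and a highest value of 4737. All guides had a median of 939 (932 to 945), and guides just outside the rule, with a longest run of 3, had 954 (935 to 971). Guides with the same number of G bases and no run above 2, weighted to the members' G counts, had 971.84. On the log2(RPM + 1) scale, where RPM is reads per 1000000 library reads, the members' median lay -0.050 from this comparison (-0.10 to 0.00039), so the interval just reached 0. It lay below 0 when the first base or the GC count was matched too, at -0.064 (-0.11 to -0.015) and -0.057 (-0.11 to -0.0068). It also lay below 0 without comparison guides that had a run of any base, for runs of exactly 4, and without guides that held the motifs named below. With runs of 3 added to the comparison it included 0, at -0.034 (-0.084 to 0.016). Among the 6 G counts with at least 50 members, from 5 to 10 G, the members' median input was lower in 5 and higher in 1. These intervals treat guides as independent draws and cover neither read counting nor library replicates.

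The low end of the input was not fuller in the members. Under 200 input reads were found for 175 members, or 8.92% (95% exact binomial interval 7.70 to 10.3%), against 9.49% of the guides matched on G count. No input reads at all were found for 21 members, or 1.07% (0.664 to 1.63%), where the share over the whole library was 1.6%. The matched guides had 1.38%. Of the 21, 9 carried at least 1 of a set of motifs taken from earlier results of the same counts. The set held CGTCTC on either strand, which is the site of BsmBI, an enzyme used to clone guides. It also held TTCGAA anywhere in the guide, a start with the letters TCTC, and a start with the letters AGACG. Only 10 of all members carried such a motif.

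The 0-input members were counted by the place of the run. With the run starting at positions 1 to 4, 2 of 906 members had no input reads, or 0.221% (0.0267 to 0.795%). With the run starting at position 5 or later it was 19 of 1055, or 1.80% (1.09 to 2.80%). None of the 906 held a motif of the set. A start with TCTC or AGACG leaves no room for a run from positions 1 to 4. For these motifs the absence was thus fixed by the sequence, and all such members fell among the later runs. Without the motif-bearing guides, 9 of which had no input reads, the share for runs from position 5 was 0.957% (0.460 to 1.75%). The motifs came from these same counts, so this share had to fall. In guides with no G run above 2 and none of the motifs it was 0.833% (0.766 to 0.905%).

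Input reads did not fall steadily with run length. The median was 920 reads (873 to 956) for runs of 4, 1075.5 (953 to 1188) for runs of 5 and 825 (658 to 1168) for runs of 6. For runs of 6 the guides of the same G count without a run had 1007.9, a difference of -0.26 on the log2(RPM + 1) scale (-0.55 to 0.20). Runs of 5 or more together had a median of 1055 (948 to 1143), beside 987.2 for guides of the same G count without a run. Under 200 input reads were found for 3.86% of them, against 9.54% of the matched guides. The 27 guides with 6 G ranged from 135 to 2113 input reads, and none was missing. Over the 12 start positions that held at least 50 members, the median input lay between 829 and 1043 reads, with no steady order along the guide.

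Survivor reads were compared among the 1903 members that had at least 30 input reads. The other 58 members were left out of ratios and of loss, and 5 of them had survivor reads. The survivor reads of all members had a median of 137 and quartiles of 35 and 300, against a median of 126 for the whole library. Loss is taken here as 0 survivor reads. It was found for 180 members, or 9.46% (8.18 to 10.9%), where 10.3% of all guides tested were lost. Guides matched on G count lost 9.75%, and the difference was -0.29 percentage points (-1.57 to 1.11). Matched on input reads in 20 bins of equal size, the comparison guides lost 10.4%. The members were lost less often than these in 13 of 20 bins and more often in 6. Among the 6 G counts with at least 50 members, they were lost more often than guides of the same G count in 4 and less often in 2.

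Loss was counted for each run length. Of members with a run of 4, 169 of 1646 were absent from the survivors, or 10.3% (8.84 to 11.8%). Of those with a run of 5 it was 10 of 230, or 4.35% (2.10 to 7.85%), and of those with a run of 6 it was 1 of 27. For runs of 5 or more together, 4.28% (2.16 to 7.53%) were lost, against 9.45% of guides with the same G count and no run, a difference of -5.17 percentage points (-7.29 to -1.92). The difference between run lengths itself was not tested, and the longer runs also had fewer low input counts, as given above. At matched input reads the comparison lost 7.54%, a sum of 19.4 guides over the bins against the 11 observed. The difference was then -3.26 points (-5.39 to -0.015), and among guides with at least 300 input reads it was -1.88 points with an interval that included 0 (-3.63 to 1.15). Guides with a C run of 5 or more lost 40 of 672, or 5.95% (4.29 to 8.02%). At matched input the share in these C-run guides was 5.89%, inside the interval of the G runs.

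The ratio of survivors to input, as a log2 difference with a pseudocount of 1 RPM and centred on the median of all tested guides, was close to that of the library. The members' median was 0.051 (-0.019 to 0.11) with quartiles of -0.88 and 0.87. Guides of the same G count without a run had -0.0073, and the difference was 0.058 (-0.012 to 0.12). The size depended on what was matched. With G count and first base it was 0.017 (-0.052 to 0.080), with first base alone 0.091 (0.022 to 0.15), with input bins 0.085 (0.015 to 0.15), and with input bins and first base 0.12 (0.047 to 0.18). At least 4-fold higher in the survivors were 70 members, or 3.68% (2.88 to 4.62%), where the share over all guides tested was 3.04%. At least 4-fold lower were 145, or 7.62% (6.47 to 8.90%), where it was 8.17%. Both counts are near the share in all guides. Among the 6 G counts with at least 50 members, the members' share 4-fold up was higher than that of comparison guides in all 6. Their median ratio was higher in 3 and lower in 3. Over guides matched on G count the share 4-fold up was 2.91%, and 3.27% with the first base matched too, both inside the members' interval. By length the median ratio was 0.021 (-0.046 to 0.099) for runs of 4, 0.13 (-0.091 to 0.35) for runs of 5 and 0.50 (-0.38 to 1.43) for runs of 6, all with intervals that included 0. Just outside the rule, runs of 3 had 0.041 (0.0048 to 0.078), close to the runs of 4.

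The ratio differed with the position of the run at the 5′ end. Runs from position 1 had a median of -0.17 (-0.35 to 0.0074, 328 guides) and runs from positions 2 to 4 had 0.22 (0.075 to 0.31, 563 guides). Runs from positions 5 to 8 had 0.056 (-0.078 to 0.18) and runs from position 9 on had 0.016 (-0.13 to 0.15). Runs that ended beside the PAM had 0.048 (-0.11 to 0.20). Of the 17 start positions, 2 had an interval of the median that lay above 0, position 2 with 0.24 (0.042 to 0.53) and position 4 with 0.31 (0.12 to 0.49), and none lay below. Position 3, between them, had -0.016 (-0.26 to 0.28).

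A run from position 1 puts G at the first base. Guides with no run above 2 that began with G had a median of -0.30, while those beginning with A had -0.013, C 0.20 and T 0.20. Against guides of the same G count, runs from position 1 differed by -0.15 (-0.34 to 0.021), and against guides of the same G count and first base by 0.074 (-0.11 to 0.25). Runs from positions 2 to 4 differed by 0.22 (0.080 to 0.32) at the same G count and by 0.089 (-0.054 to 0.19) at the same G count and first base. Against the same first base alone they differed by 0.17 (0.022 to 0.26), and against the same input bin and first base by 0.20 (0.058 to 0.30). At the same G count and first base, runs from position 4 differed by 0.24 (0.048 to 0.41), position 3 by -0.12 (-0.36 to 0.17) and position 2 by 0.045 (-0.15 to 0.34). Guides that began with exactly 1, 2, 3 and 4 G had medians of -0.29, -0.27, -0.33 and -0.18, and the 52 that began with 5 G had -0.14 (-0.83 to 0.35). Guides that began with another base had 0.13.

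Guides with a first base other than G were described by the stretch of G from position 2. With exactly 1, 2, 3 and 4 G there, the medians were 0.14, 0.19, 0.20 and 0.28, the last with an interval of 0.050 to 0.64, and all 4 intervals overlapped. The 35 guides with 5 G from position 2 had -0.032 (-0.71 to 0.35). Of the 210 tested members with the run from position 2, 16 were at least 4-fold up, or 7.62% (4.42 to 12.1%), beside 4.67% of guides matched on G count and first base. Among them 13 of the 103 that began with T were 4-fold up, or 12.6% (6.89 to 20.6%), against 4.34% of the guides with no run that began with T. Of the same 103, 14 were lost from the survivors, or 13.6% (7.63 to 21.8%), against 10.3%. This subset was singled out after the values were seen. Over all members that began with T, which include the 103 singled out, the median ratio was 0.43 (0.25 to 0.62, 399 guides). Of these, 30, or 7.52% (5.13 to 10.6%), were 4-fold up. The share was 4.34% in guides with no G run above 2 that began with T, and 3.04% in all guides tested. Members that began with A, C and G had medians of 0.024, 0.25 and -0.20. The shares 4-fold up were 4.72%, 2.90% and 1.36%. In guides with no G run above 2 that began with these bases they were 2.52%, 3.97% and 1.41%.

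Set against C runs, the G runs had fewer input reads, though their median of 935 was close to the 939 of all guides. The 3328 guides with a C run had a median of 1094.5 input reads (1064 to 1127), and the members' median differed from it by -0.21 on the log2(RPM + 1) scale (-0.26 to -0.16). At the same GC content the C-run guides had 1088.5 reads. Of the C-run guides 7.35% (6.48 to 8.31%) were lost from the survivors, so the loss of the G runs was 2.11 percentage points higher (0.828 to 3.51). At matched input reads this turned to -0.084 points (-1.36 to 1.32). The ratio of C-run guides had a median of 0.078 (0.011 to 0.13), a difference of -0.027 (-0.097 to 0.035). The medians lay furthest apart for runs at the 5′ end, where C runs from position 1 had a median ratio of 0.49 (0.10 to 0.65, 185 guides) and G runs -0.17. These runs also differ in the first base. Guides with no G run above 2 that began with C and with G had medians of 0.20 and -0.30. The part of the first base in this gap was not tested. For comparison, guides with a run of 4 or more A had a median of 655 input reads and 813 of the 4791 tested were lost.

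The number of G stretches was examined beside their length. The guides were searched for 4 stretches of GG or longer, separated by 1 to 7 bases of any kind. A four-stranded structure with short stems could fold from 4 distinct stretches. The separating bases could themselves be G, so 1 long run of G could be counted as 2 stretches. The arrangement was present in 23 members and in 0.240% of all guides. The 23 members were not checked for 4 distinct stretches. These 23 had a median of 610 input reads (228 to 1150), against 938 (905 to 974) for the other members. Their median ratio was 0.13 (-0.48 to 1.13), and 2 of 22 were lost. The 102 guides with such an arrangement and no run above 2 had a median of 807.5 input reads (632 to 1081). Of the 98 tested among them 15 were lost, or 15.3% (8.83 to 24.0%), where 10.3% of all guides tested were lost. Under 200 input reads were found for 15.7% of the 102. The letters were matched, and no structure was measured.

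Single members at the extremes show how widely guides with the same run length scattered. The 2 members with the highest and the 2 with the lowest ratios among those with at least 200 input reads all had a run of 4.
N, highest: tggcgatGGGGactgtcaca
P, second: agatGGGGccttcacgacca
Q, lowest: ctttaaagaGGGGccatatg
R, next lowest: GGGGaaaggtcacaactgga

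Guide N had 305 input reads and 811 survivor reads, a log2 ratio of 3.91, or 4.24 without the pseudocount (95% exact interval 4.04 to 4.43). Guide P had 2945 input reads and 5165 survivor reads, with a ratio of 3.60, or 3.64 without the pseudocount (3.57 to 3.70). It was the guide with the most survivor reads in the whole library, rank 1 of 79633. Guide Q had 2248 input reads and none in the survivors, which places it at least 141-fold lower in RPM when 3 survivor reads are taken as the limit that a count of 0 allows. Guide R had 1742 input reads and none in the survivors, at least 109.5-fold lower. These single-guide intervals and limits cover counting error only: the reads came from PCR with no molecular identifiers and do not each stand for a separate molecule.

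Guides near the middle of the input also lay on both sides of the median ratio. Guide W, with the run at the 5′ end, had 983 input reads and none in the survivors. Guide X, with the run beside the PAM, had 936 and 269, a ratio of 0.98. Guide S had 920 and 305 reads and a ratio of 1.18, while guide U had 1084 and 114 and a ratio of -0.34. Guide Y, just outside the rule, had 954 and 91 and a ratio of -0.45.

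The guides with 6 G, the longest G run in the library, were spread on both sides of the median guide. Guide K had 2113 input and 1079 survivor reads, the most of the 27 in both libraries, and a ratio of 1.82. Guide L had 1735 and 205 with a ratio of -0.22, guide M 1637 and 382 with 0.71, and guide V 825 and 238 with 0.98. Of the 27, 18 had a ratio above 0, the value at which the centring puts the median of all guides tested. The interval of the median of the 27, -0.38 to 1.43, included 0. The lowest and the highest both had the run from position 2 and were picked after their values were seen.
lowest of 27: aGGGGGGtcagagctgacaa
highest of 27: tGGGGGGcttatgcttacga
absent from the survivors: gaaatGGGGGGcattccaag

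The lowest had 1054 input reads and 1 survivor read, with a ratio of -3.22, or -7.22 without the pseudocount (-12.5 to -4.74). The highest had 751 and 462, with a ratio of 2.02. The absent guide had 135 input reads, the fewest of the 27, so its 0 survivor reads place it at least 8.49-fold lower.

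Overlapping guides on opposite strands allowed a G run and a C run to be compared at nearly the same place. Opposite-strand pairs that shared at least 14 bases numbered 14, and in 12 of them the partner held a C run of 4 or more. The 3 with the most input reads in sum, and the 1 with a run of 6, chosen after its values were seen, are shown with the run in capitals.
site H, G run: gcagaccaaGGGGGactacg
site H, C run: agcagccgtagtCCCCCttg
site J, G run: GGGGaagctaactctgctgg
site J, C run: cagcagagttagcttCCCCg
site O, C run (partner of guide X): gccgCCCCagccatctgtat
site I, G run: tctGGGGGGtgctaatgatg
site I, C run: attagcaCCCCCCagagttg

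At site H the G-run guide had 1931 reads in the input and 360 in the survivors, and the C-run guide 4001 and 956, so both were present in both libraries with ratios of 0.40 and 0.75. At site J the ratios had opposite signs: -1.78 for the G run, with 1575 and 52 reads, and 0.71 for the C run, with 1174 and 275. At site O the C-run guide had 1406 and 273 reads and a ratio of 0.46, beside 0.98 for guide X. At site I the G run of 6 had 1055 and 508 reads and a ratio of 1.70, while its C-run partner had 122 input reads and none in the survivors. In 9 pairs neither guide fell below 30 input reads. Among these the G-run guide had more input reads in 6 and the higher ratio in 6. The median ratio was 0.98 for the G runs, with a range of -1.78 to 2.03, and 0.46 for the C runs, with a range of -2.83 to 0.79. None of the 9 G-run guides and 2 of the 9 C-run guides were lost. The ranges overlapped, and with 9 pairs in 1 pair of libraries no difference was tested.

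Members shifted by 1 base along the same strand show how far guides with the same run differed. There were 4 such pairs with at least 30 input reads on both sides, and 2 of them are shown, picked after their values were seen, with the leftmost run in capitals.
pair 1, first guide: aacagtaaGGGGcagatatt
pair 1, shifted guide: caacagtaaGGGGcagatat
pair 2, first guide: ttGGGGagcactttggggaa
pair 2, shifted guide: tttGGGGagcactttgggga

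The guides of pair 1 had 750 input and 294 survivor reads, and 1620 and 213, with ratios of 1.39 and -0.071. Those of pair 2 had 208 and 225 input reads and both were absent from the survivors. Over the 4 pairs the input reads differed by 1.08-fold to 2.76-fold. In the 3 pairs with survivor reads the log2 ratios differed by 0.49 to 1.53, and in the pair without them the ratios are set by the input reads and the pseudocount. Next to members that shared at least 14 bases on the same strand with a guide without the run, the higher ratio was on the member's side in 4 of 11 pairs, with medians of 0.15 for the members and 0.17 for the partners.

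Genome positions could be given for a few members only. The windows from 250 bases before to 50 after each RefSeq gene start, on build GRCm38.p6, held an exact match followed by NGG for 17 of the 1961 members, 15 of them at 1 place. The count files name neither genes nor a build, the rest of the genome was not searched, and exons were not analysed here, so the gene at a match is not shown to be the intended target. The 3 matched members with at most 1 input read, and 1 that was higher in the survivors, are shown. They were chosen after their values were seen and do not span the range, which reached 3474 input reads for a guide within Ttc9b.
chr10:24595933-24595952, minus strand, within Ccn2: ctcacgccggcGGGGcagtg
chr5:115341267-115341286, plus strand, within Triap1: cgccatgaacagcgtcGGGG
chr15:78928011-78928030, plus strand, within Lgals1: tctcaaagttcGGGGagagg
chr13:21810125-21810144, plus strand, within H2bc23, and chr13:23574144-23574163, within H2bc7: ttggagcccttcttcGGGGc

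The guide in Ccn2, which encodes a secreted matrix-associated growth factor, had 1146 reads in the input and 547 in the survivors, a ratio of 1.70. The guide in Triap1 and the guide in Lgals1, the gene of galectin-1, had no reads in either library, and the latter begins with TCTC. The guide matching the histone H2B genes H2bc23 and H2bc7 had 1 input read and none in the survivors. A guide that matched the start windows of Tmem254a, Tmem254b and Tmem254c had 1336 and 271 reads and a ratio of 0.52.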

How the data were processed

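Guide barcodes were amplified by PCR from genomic DNA and sequenced on an Illumina instrument, per the labels' protocols. The authors deposited raw read counts per 20-base guide barcode for 2 libraries, with no normalization, per the file headers. The counting tool, its mismatch setting and what was combined in each library are not given in the sources at hand. Each group was 1 library and was taken from the treatment label.

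Counts were joined by barcode, scaled to RPM, and given a pseudocount of 1 RPM. Guides with fewer than 30 input reads were left out of loss and ratios. The log2 ratio had a median of -0.42 over all kept guides, which was subtracted. Runs were located in the barcode sequence, with the longest run, and the leftmost of equal runs, giving length and start. Comparison guides with no G run above 2 were weighted to the members' strata of G count, or of first base, GC count or 20 input bins where stated. Intervals are 95% exact Clopper-Pearson for shares, the conditional binomial for ratios of single guides, and binomial order statistics for medians. Intervals of a difference hold the comparison value fixed. A limit of 3 reads was used for a count of 0. Named guides were the 3 with most input reads in the longest run class, the 2 highest and 2 lowest ratios from 200 input reads, those nearest the median input of each length, end position and the class of run 3, and the 3 opposite-strand pairs with most reads. Others are said to be chosen after their values were seen. The members and sets were chosen with earlier results of these data known. The weighting was tested on simulated data. Python 3.11.15 with numpy 2.4.6, pandas 2.3.3 and scipy 1.17.1 was used, with edgeR 4.0.16 and DESeq2 1.42.0, run in R 4.3.3, for scaling factors only.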

Additional observations from a re-analysis of the deposited data

Results flagged for a closer look

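A member with 0 input reads, gtacttcctGGGGtcactag, had 8 survivor reads, which is 0.492 RPM. Taking 3 reads as the limit for an input count of 0, its input level lies at or under 0.0348 RPM. It lies outside the ratios, and it is the only one of the 21 members without input reads that had any in the survivors.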

How the results depend on the processing

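No paired analysis was possible because the input and the survivors are single libraries, and none could be left out. Of 57 planned and 27 added alternatives, the latter chosen after seeing the data, 74 of 84 gave values inside the main interval, or counts that differed by less than 1.5 times. The 70 members at least 4-fold up became 13 with a pseudocount of 5 RPM, 41 with edgeR's TMM factors and 46 with the size factors of DESeq2, the last 2 of which put the median of all guides at -0.23 and -0.18. The share of all guides 4-fold up was then 0.569%, 1.77% and 2.0%. The 145 members 4-fold down became 322 with a pseudocount of 0.1 RPM and 3 with 5 RPM, where 18.5% and 0.203% of all guides were down. With 5 RPM the input difference from C-run guides moved from -0.21 to -0.16. Matching on input bins turned the difference in loss from C-run guides from 2.11 to -0.084 percentage points and moved the difference in ratio from -0.027 to 0.057. The lower loss of runs of 5 or more moved to -1.88 points from 300 input reads. For runs from position 1, the difference in ratio from guides of the same G count moved from -0.15 to 0.074 when the first base was matched too. The cause was not tested for any of these.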
